A study of Mus musculus with 9 samples.

Results

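Nanog and 9 further transcription factors of the naive pluripotency network were followed across 3 cultured states of the mouse epiblast. The members were the rows of the deposited count table whose symbol was Nanog, Zfp42, Klf2, Klf4, Klf5, Esrrb, Tfcp2l1, Nr0b1, Tbx3 or Nr5a2, which gave 10 of 23453 symbols. Bulk RNA-seq was made from wild-type cells in 3 states with 3 libraries each, 9 in all. EpiLCs (epiblast-like cells) had been grown from embryonic stem cells for 48 h in N2B27 medium with 1% KSR, a serum replacement, together with FGF2 and Activin A. From them, aEpiLCs were cultured for a further 24 h in N2B27 basal medium with 1% KSR and no added factor, and pEpiLCs for a further 24 h in the same medium with Activin A and CHIR99021, an agonist of WNT signalling. The aEpiLC and pEpiLC media therefore differed in both agents, and both states also differed from EpiLCs in age in culture and in FGF2, so these influences cannot be told apart. The labels give the tissue as embryo, although the cells were cultured, and no naive embryonic stem cell library was analysed here. Formative genes were abundant in EpiLCs, with a mean of 85.3 CPM (read counts scaled to library size and composition) for Fgf5, 94.9 for Otx2 and 204 for Pou3f1 (n = 3). The same genes had means of 115, 143 and 203 CPM in aEpiLCs and 168, 69.9 and 32.2 CPM in pEpiLCs. High levels of them were therefore not particular to EpiLCs.

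Naive pluripotency is held by a set of transcription factors that activate one another and the core factors POU5F1 and SOX2. NANOG is a homeodomain protein of this set that falls as cells leave the naive state and is known to return in the posterior epiblast around gastrulation, whereas most of its partners do not. KLF2, KLF4 and KLF5 are zinc finger proteins of one family, ESRRB, NR5A2 and NR0B1 belong to the nuclear receptors, TFCP2L1 is a grainyhead-like factor, TBX3 a T-box factor, and ZFP42 (also called REX1) a zinc finger protein widely used to mark naive cells.

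The 250 bases before the start sites of Nanog and Zfp42 are printed because these genes held the highest levels per length among the members and because their windows carried motifs searched for POU5F1 (OCT4), SOX2 and KLF proteins, which are described further below. The sequences are RefSeq's for GRCm38.p6, read 5′ to 3′ on the gene's strand, and capitals mark the matches. The Nanog window is chr6:122707239-122707488 on the + strand, and the Zfp42 window is chr8:43307010-43307259 on the - strand.
Nanog: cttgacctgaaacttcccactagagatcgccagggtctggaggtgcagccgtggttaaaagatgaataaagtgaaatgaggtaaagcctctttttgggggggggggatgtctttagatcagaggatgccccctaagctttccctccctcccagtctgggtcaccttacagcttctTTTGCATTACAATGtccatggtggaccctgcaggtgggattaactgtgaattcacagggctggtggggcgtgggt
Zfp42: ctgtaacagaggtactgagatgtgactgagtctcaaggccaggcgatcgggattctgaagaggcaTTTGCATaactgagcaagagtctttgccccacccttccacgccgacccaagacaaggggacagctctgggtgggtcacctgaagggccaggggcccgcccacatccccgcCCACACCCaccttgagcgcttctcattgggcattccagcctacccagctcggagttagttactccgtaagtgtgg
In Nanog the capitals hold the OCT octamer core TTTGCAT from 75 to 69 bases before the start, then 1 base, then the SOX core ACAATG from 67 to 62 bases before it. In Zfp42 they hold the octamer core from 185 to 179 bases and the KLF box CCACACCC from 75 to 68 bases before the start. The octamer core lay in 4.12% of all 32851 promoter windows of this length, the SOX core in 10.7% and the KLF box in 3.2%. The octamer and SOX cores spaced as in Nanog, a combined motif that overlaps both, lay in 2 windows (0.00609%), which belong to the 2 RefSeq starts of Nanog. These windows overlap and hold the same site. Other spacings or letters were not searched, so this share is not that of paired OCT and SOX sites in general. Searches on both strands for the TCF/LEF core CTTTGAT (3.21% of windows), the ESRRB half-site TCAAGGTCA (0.387%) and the SMAD box GTCTAGAC (0.167%) found no match in the windows of the 8 members present in the RefSeq table, from which Klf5 and Tbx3 were missing. The motifs were taken from general knowledge, and a match describes letters and not binding.

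Total expected counts lay between 20560564 and 23417917 per library, and 3 counts, taken as the detection limit, corresponded to 0.130 to 0.143 CPM. One pEpiLC library stood apart. Between pEpiLC replicate 1 and pEpiLC replicates 2 and 3, 324 and 333 genes differed by more than 4-fold, compared with 57 to 76 in every other pair of replicates. The 6 primitive streak markers examined (T, Mixl1, Eomes, Mesp1, Gsc and Evx1) summed to 2401 CPM in pEpiLC replicate 1 and to 503 and 492 CPM in replicates 2 and 3, with Mesp1 at 0 in replicate 2, against 3.30 to 7.46 CPM over the 6 other libraries. Results that this library moved are given with and without it. Nothing in the labels says that replicates came from separate cultures, so the tests measure the spread between these libraries, which may be technical. In bulk RNA, fewer cells that express a gene and less RNA per cell cannot be told apart.

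Nanog rose in pEpiLCs against both other states, and no other member was called higher against both. Each pair of states was compared with the quasi-likelihood test of edgeR, fitted to 6 libraries at a time. Calls required an adjusted p (Benjamini-Hochberg, over all genes tested) below 0.05 together with a log2 fold change of 1 or more in either direction. Between pEpiLCs and aEpiLCs, 8 members passed the filter on low counts, of which Nanog and Esrrb were called higher in pEpiLCs and Klf2 and Nr0b1 lower, where 2.55% and 4.74% of 15198 genes were called higher and lower. Between pEpiLCs and EpiLCs, 9 members passed, of which Nanog was called higher and Nr0b1 lower, where 7.71% and 8.13% of 15288 genes were called. Between aEpiLCs and EpiLCs, 8 members passed, of which Klf2 was called higher in aEpiLCs and Nr0b1, Zfp42 and Esrrb lower, where 7.25% and 5.24% of 15301 genes were called. Nr5a2 passed the filter in no comparison and Tbx3 passed only between pEpiLCs and EpiLCs. The comparisons share libraries, so they are not independent of one another. The median log2 fold change over all tested genes was at most 0.0167 in each comparison.

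**Figure D1:**
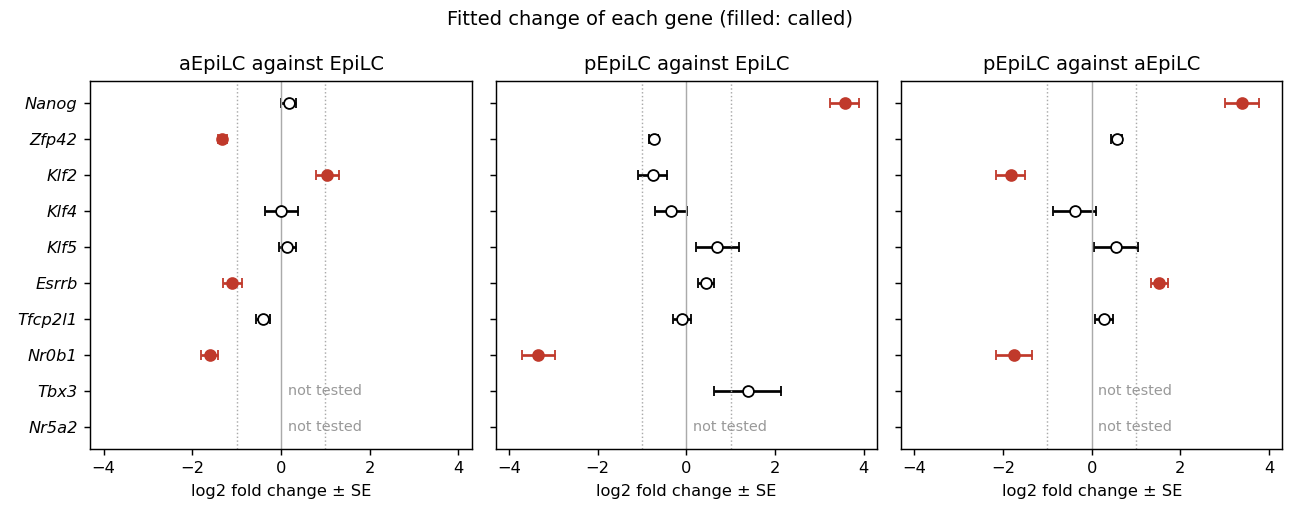
Fitted log2 fold change (x axis, ± SE) of each member in the 3 comparisons, with filled red points for called genes, dotted lines at a log2 fold change of 1 in either direction, and grey text for members that were not tested. Nanog stands at 3.57 and 3.38 in the comparisons of pEpiLC with EpiLC and with aEpiLC and near 0 between aEpiLC and EpiLC, whereas Nr0b1 lies below 0 in all 3.

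Nanog (ENSMUSG00000012396.12, GRCm38 chromosome 6, 122707489 to 122714633, + strand) had 17.6, 17.1 and 17.1 CPM in EpiLC replicates 1, 2 and 3. It had 26.8, 17.3 and 14.2 CPM in aEpiLCs and 105, 247 and 255 CPM in pEpiLCs. Every pEpiLC library lay above every library of the other states, and the EpiLC and aEpiLC libraries overlapped. The mean was 17.3 ± 0.292 CPM in EpiLCs, 19.4 ± 6.61 in aEpiLCs and 202 ± 84.5 in pEpiLCs (SD, n = 3 each), a rise of 11.9-fold from EpiLCs and 10.4-fold over aEpiLCs. The log2 fold change was 3.57 against EpiLCs (SE 0.327, edgeR, adjusted p = 0.000279). Between aEpiLCs and EpiLCs it was 0.17 (SE 0.177, edgeR, adjusted p = 0.460), so no difference larger than the replicate spread was found. The coefficient of variation was 1.69% in EpiLCs, 34.0% in aEpiLCs and 41.7% in pEpiLCs, where it rested on replicate 1, since replicates 2 and 3 lay close together.

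Within pEpiLCs, replicate 1 had 0.418 times the mean Nanog level of replicates 2 and 3. It was also the library with the highest streak marker sum, and its level of T, the gene for the mesoderm factor TBXT, was 1087 CPM against 204 and 219 CPM. Without this library the log2 fold change of Nanog was 3.89 against EpiLCs and 3.70 against aEpiLCs. Within aEpiLCs, replicate 1 held the highest Nanog level, and the same library held the highest levels of 3 genes that respond to Activin and Nodal signalling. Lefty1, an inhibitor of Nodal, had 42.6, 19.9 and 7.22 CPM in aEpiLC replicates 1, 2 and 3, Lefty2, a close relative, had 7.93, 3.78 and 2.30 CPM, and Smad7, an inhibitory SMAD, had 10.8, 6.30 and 4.64 CPM. These genes stood in the same order as Nanog over the 3 aEpiLC libraries, an order noticed after the values were seen, and its part in the Nanog level was not tested. For Lefty1 and Lefty2 it did not hold in pEpiLCs. There Lefty1 had 276, 127 and 146 CPM and Lefty2 109, 29.0 and 31.3 CPM, highest in replicate 1, where Nanog was lowest. Smad7 had 17.5, 23.2 and 22.6 CPM in pEpiLCs, lowest in replicate 1 as Nanog was, with replicates 2 and 3 in the other order. In EpiLCs replicate 1 had the lowest Lefty1 and Lefty2 (184 and 64.7 CPM) and the highest Smad7 (49.0 CPM). Nanog, at 17.1 to 17.6 CPM, varied too little in EpiLCs for its order to be read. Without aEpiLC replicate 1 the log2 fold change of Nanog between aEpiLCs and EpiLCs was -0.13. The deposited Nanog counts were whole numbers in all 9 libraries, so RSEM had divided no reads between Nanog and other genes in a way that left a fraction.

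**Figure D2:**
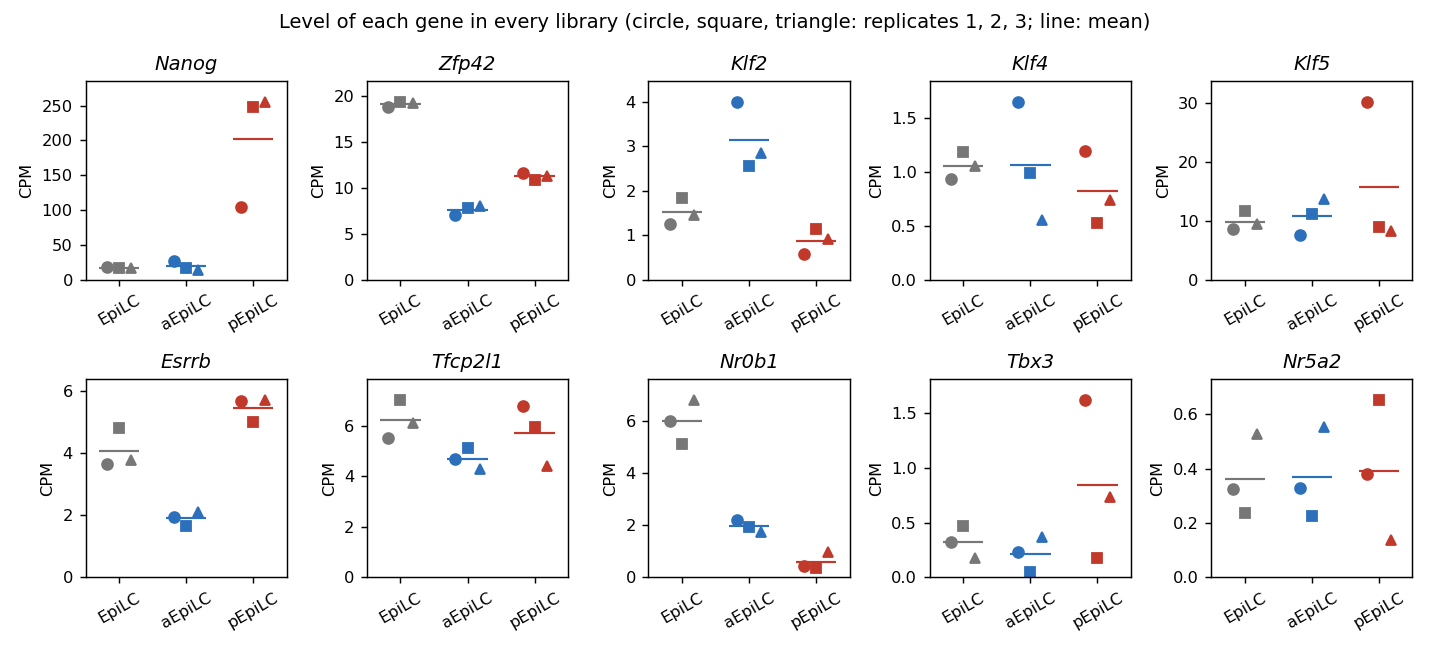
CPM of each member (y axis, own scale from 0 in each panel) in the 9 libraries by state, with circles, squares and triangles for replicates 1, 2 and 3 and a line at the mean of each state. The 3 pEpiLC libraries of Nanog, at 105 to 255 CPM, lie above all others, and the circle of pEpiLC replicate 1 stands apart for Nanog and Klf5.

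Zfp42 (chromosome 8, 43295063 to 43306980, - strand) followed a different course. It had 18.7, 19.3 and 19.2 CPM in EpiLCs, 6.99, 7.78 and 8.05 CPM in aEpiLCs, and 11.6, 10.8 and 11.3 CPM in pEpiLCs. The 3 states did not overlap, with EpiLCs highest and aEpiLCs lowest. Zfp42 fell in aEpiLCs by 1.32 on the log2 scale (SE 0.110, edgeR, adjusted p = 6.53e-07). The pEpiLC level stood between the other states, at a log2 fold change of -0.74 against EpiLCs (SE 0.0979, edgeR, adjusted p = 0.00117) and 0.56 against aEpiLCs (SE 0.126, edgeR, adjusted p = 0.0241), both under the limit on fold change. Unlike Nanog, it varied little between replicates, with coefficients of variation of 1.46% to 7.23%. Expected counts of Zfp42 carried a fraction in 4 libraries, and the pseudogene Zfp42-ps1 had 0 to 3.09 counts.

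Among the Krüppel-like factors, Klf2 rose in aEpiLCs and was low in pEpiLCs. Klf2 (chromosome 8, 72319033 to 72321656, + strand), a factor that can sustain self-renewal of naive cells, had 1.26, 1.84 and 1.45 CPM in EpiLCs. It had 3.99, 2.56 and 2.85 CPM in aEpiLCs and 0.572, 1.13 and 0.919 CPM in pEpiLCs. Its aEpiLC libraries lay above all others and its pEpiLC libraries below all others. The log2 fold change was 1.05 between aEpiLCs and EpiLCs (SE 0.256, edgeR, adjusted p = 0.00441) and -1.83 between pEpiLCs and aEpiLCs (SE 0.322, edgeR, adjusted p = 0.0107). The rise in aEpiLCs lay close to the limit on fold change, and it fell to 0.93 without EpiLC replicate 1 and to 0.84 without aEpiLC replicate 1, where the call was lost. Against EpiLCs, the pEpiLC value of -0.76 was not called (SE 0.328, edgeR, adjusted p = 0.0945).

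Klf4 and Klf5 were called in no comparison. Klf4 (chromosome 4, 55527143 to 55532466, - strand), a target of LIF and STAT3 signalling in naive cells, had 0.933, 1.18 and 1.05 CPM in EpiLCs, 1.64, 0.990 and 0.552 CPM in aEpiLCs, and 1.19, 0.521 and 0.735 CPM in pEpiLCs. All 3 states overlapped, and the counts behind these values were 12 to 35 per library. Klf5 (chromosome 14, 99298691 to 99315036, + strand), which acts beside Klf2 and Klf4 in naive cells, had 8.54, 11.6 and 9.40 CPM in EpiLCs and 7.60, 11.2 and 13.7 CPM in aEpiLCs. In pEpiLCs it had 30.1, 8.95 and 8.27 CPM, so that replicate 1 alone stood above the other 8 libraries, at 3.50 times the mean of pEpiLC replicates 2 and 3. The log2 fold change of Klf5 against aEpiLCs was 0.54 with this library (SE 0.500, edgeR, adjusted p = 0.509) and -0.33 without it. Against EpiLCs it was 0.70 (SE 0.481, edgeR, adjusted p = 0.270) and -0.17 without it. In pEpiLC replicate 1 Nanog was thus the lowest of its state and Klf5 the highest.

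Esrrb and Tfcp2l1 are activators of the naive network that act downstream of WNT pathway stimulation and of LIF, respectively. Esrrb (chromosome 12, 86361117 to 86521628, + strand), an orphan nuclear receptor and a known target of NANOG, had 3.64, 4.81 and 3.78 CPM in EpiLCs, 1.92, 1.66 and 2.12 CPM in aEpiLCs, and 5.67, 4.998 and 5.70 CPM in pEpiLCs. The 3 states did not overlap, and pEpiLCs were highest. It fell in aEpiLCs by 1.10 on the log2 scale (SE 0.212, edgeR, adjusted p = 0.000890) and was higher in pEpiLCs than in aEpiLCs by 1.52 (SE 0.189, edgeR, adjusted p = 0.00252). The pEpiLC level exceeded that of EpiLCs by a log2 fold change of 0.44, which was not called (SE 0.177, edgeR, adjusted p = 0.0764). Without EpiLC replicate 2, the library with the most Esrrb in that state, the value for aEpiLCs was -0.96 and under the limit on fold change. Tfcp2l1 (chromosome 1, 118627945 to 118685168, + strand) had 5.50, 7.02 and 6.11 CPM in EpiLCs, 4.69, 5.13 and 4.28 CPM in aEpiLCs, and 6.77, 5.95 and 4.41 CPM in pEpiLCs. Its aEpiLC libraries lay below those of EpiLCs, but the log2 fold change of -0.40 was not called (SE 0.160, edgeR, adjusted p = 0.0550), and pEpiLCs overlapped both other states. An exon of Tfcp2l1 shares 130 bases with the small nuclear RNA gene Gm23497 on the same strand.

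Nr0b1 was lower in both aEpiLCs and pEpiLCs than in the EpiLCs they were made from, and lowest in pEpiLCs. It encodes DAX1 (chromosome X, 86191764 to 86195947, + strand), a nuclear receptor without a classical DNA-binding domain that acts as a corepressor in embryonic stem cells. It had 6.02, 5.14 and 6.81 CPM in EpiLCs, 2.21, 1.93 and 1.75 CPM in aEpiLCs, and 0.429, 0.348 and 0.965 CPM in pEpiLCs. The 3 states did not overlap, and the pEpiLC values rested on 9, 8 and 21 counts. The log2 fold change was -1.61 between aEpiLCs and EpiLCs (SE 0.192, edgeR, adjusted p = 1.79e-05) and -3.33 between pEpiLCs and EpiLCs (SE 0.362, edgeR, adjusted p = 0.000549), a 10.1-fold lower level. Between pEpiLCs and aEpiLCs it was -1.75 (SE 0.402, edgeR, adjusted p = 0.0264). That last call was lost without aEpiLC replicate 1, 2 or 3 (adjusted p = 0.0939, 0.0923 and 0.0771, edgeR) and without pEpiLC replicate 2 (adjusted p = 0.0668, edgeR), and the log2 fold change then lay between -1.83 and -1.48.

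Tbx3 and Nr5a2 were near the detection limit. Tbx3 (chromosome 5, 119670669 to 119684724, + strand), a T-box factor used both by naive cells and in later mesoderm and endoderm, had 7, 10 and 4 counts in EpiLCs, 5, 1 and 8 in aEpiLCs, and 34, 4 and 16 in pEpiLCs. The pEpiLC libraries overlapped the others through replicate 2 and lay above all of them in replicates 1 and 3. The log2 fold change against EpiLCs was 1.38 (SE 0.757, edgeR, adjusted p = 0.173), which became 1.87 without pEpiLC replicate 2, where Tbx3 was called (edgeR, adjusted p = 0.0361), and 0.50 without pEpiLC replicate 1. Exons of Tbx3 share 115 bases with the antisense gene Tbx3os1, and whether the counting used strand is not given in the sources used here. Nr5a2 (chromosome 1, 136842571 to 136960448, - strand), which encodes LRH1, an activator of Pou5f1, had 7, 5 and 12 counts in EpiLCs, the same 3 numbers in aEpiLCs, and 8, 15 and 3 in pEpiLCs. A difference between states was not detectable for Nr5a2 at this depth.

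Per length, Nanog and Zfp42 led the set in every state and exchanged places. Levels between genes were compared as CPM per kilobase of merged exons in GENCODE vM21, which counts every annotated exon and so understates genes with many unused exons. In EpiLCs Zfp42 had 10.1 ± 0.148, Nanog 7.71 ± 0.130, Nr0b1 3.31 ± 0.463 and Klf5 1.90 ± 0.308 CPM per kilobase (SD, n = 3), and none of these neighbours overlapped. Klf2 (0.821), Esrrb (0.674) and Tfcp2l1 (0.658) followed with overlapping libraries, then Klf4 (0.346), and Nr5a2 (0.0616) and Tbx3 (0.0490) came last and overlapped. In aEpiLCs Nanog (8.66 ± 2.95) stood above Zfp42 (4.04 ± 0.292), with Klf5 (2.08), Klf2 (1.70) and Nr0b1 (1.09) next, and the libraries of Klf5 and Klf2 overlapped. Esrrb dropped there to 0.314 and overlapped Klf4 at 0.348. In pEpiLCs Nanog reached 90.3 ± 37.7 CPM per kilobase, and its lowest library, at 46.8, stood above the highest Zfp42 library, at 6.18. Zfp42 (5.97 ± 0.229) overlapped Klf5 (3.03 ± 2.39) through replicate 1 alone, in which Klf5 had 5.79 against 1.72 and 1.59 in replicates 2 and 3, Esrrb (0.902) stood next, apart from both neighbours, and Nr0b1, which followed Nanog in EpiLCs, had 0.321 and overlapped Klf2 and Klf4. The 9 members other than Nanog summed to 45.3 to 51.6 CPM in EpiLCs, 29.6 to 34.3 CPM in aEpiLCs and 33.2 to 58.4 CPM in pEpiLCs, where replicate 1 was the highest and Klf5 gave 30.1 CPM of it.

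**Figure D3:**
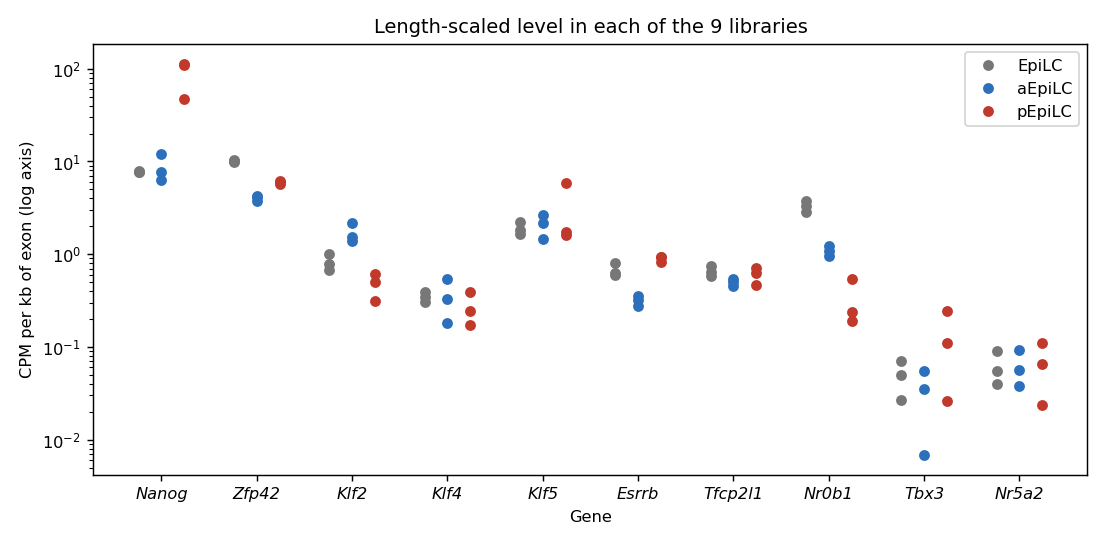
CPM per kilobase of exon (y axis, log scale) of each member in the 9 libraries, 1 point per library coloured by state. Nanog in pEpiLCs, from 46.8 to 114 CPM per kilobase, lies above every other point, and Tbx3 and Nr5a2 have the lowest means in each state.

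Most called genes of a list of other genes typical of naive cells were lower after the further culture, and Jam2 was higher in pEpiLCs. Of 14 genes listed, 13 were in the table. Between aEpiLCs and EpiLCs, 6 of the 10 tested were lower (Dppa5a, Pecam1, Morc1, Dppa2, Fgf4 and Dppa3), where 5.24% of all genes were, with a median log2 fold change of -1.54 over the list. Between pEpiLCs and EpiLCs, 7 of 11 were lower, the same 6 and Dppa4, where 8.13% of all genes were, with a median of -2.22. Jam2 was the 1 of 11 called higher, which is near the share of all genes (7.71%) and says nothing particular about the list. Fbxo15, Gbx2 and Tet2 were called in no comparison. Dppa3 held 1 to 22 counts per library, with 0.184 to 0.422 CPM in aEpiLCs and 0.0460 to 0.217 CPM in pEpiLCs, near the detection limit. Dppa5a, an RNA-binding protein gene of pluripotent cells, had 366, 404 and 387 CPM in EpiLCs, 44.5, 46.2 and 52.8 CPM in aEpiLCs, and 51.1, 78.6 and 79.9 CPM in pEpiLCs. Fgf4, the ligand that drives naive cells towards differentiation, had 106, 108 and 88.5 CPM in EpiLCs, 28.3, 32.2 and 40.0 CPM in aEpiLCs, and 1.62, 4.82 and 5.93 CPM in pEpiLCs. The 3 states did not overlap for Fgf4, with EpiLCs highest and pEpiLCs lowest, as for Nr0b1, and its log2 fold change between pEpiLCs and aEpiLCs was -3.02 (SE 0.391, edgeR, adjusted p = 0.00300). Fgf4 and Dppa4 were the 2 of 10 called lower in that comparison, where 4.74% of all genes were, with a list median of -0.23, and without pEpiLC replicate 1 the count was 1 (Fgf4). Pecam1, an adhesion molecule of naive cells, had a log2 fold change of -2.80 in aEpiLCs (SE 0.202, edgeR, adjusted p = 1.80e-07) and -2.78 in pEpiLCs (SE 0.341, edgeR, adjusted p = 0.000865) against EpiLCs. Jam2, a junctional adhesion molecule, had 0.0471 to 0.439 CPM in EpiLCs and 0.782 to 1.62 CPM in pEpiLCs.

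**Figure D4:**
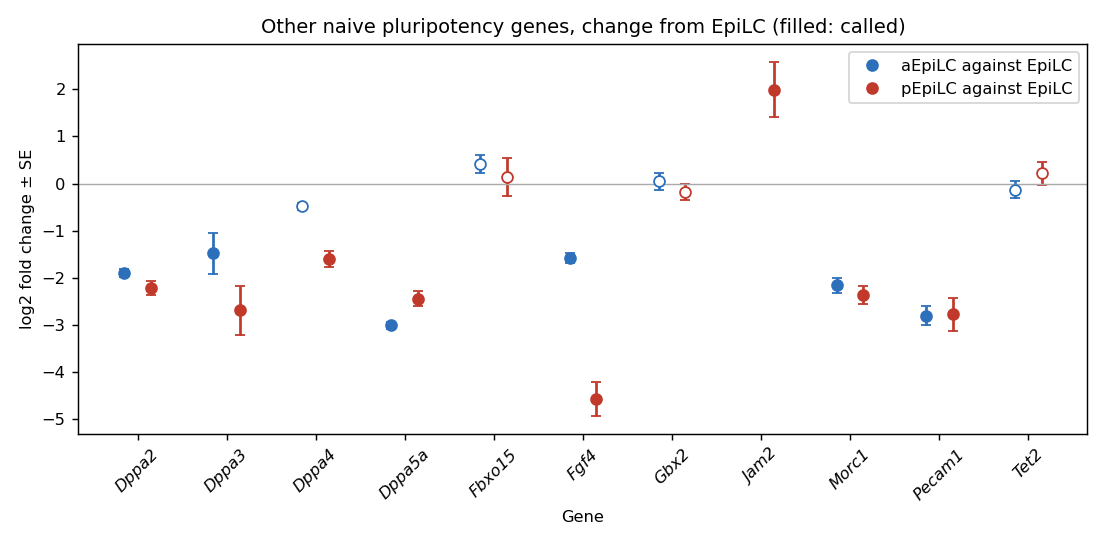
Log2 fold change from EpiLC (y axis, ± SE) of the tested genes of the list of other naive genes, blue for aEpiLC and red for pEpiLC, filled where called. Most called points lie below 0 in both states, Fgf4 reaches -4.58 in pEpiLC, and Jam2 is the called point above 0.

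The core factors split. Pou5f1, which encodes OCT4, had 1128 ± 10.5 CPM in EpiLCs, 934 ± 48.2 in aEpiLCs and 954 ± 146 in pEpiLCs (SD, n = 3) and was called in no comparison. Sox2, its partner, had 55.2, 65.7 and 61.0 CPM in EpiLCs, 98.4, 101 and 105 CPM in aEpiLCs, and 11.6, 34.5 and 24.4 CPM in pEpiLCs. The states did not overlap, and the lowest Sox2 was in pEpiLCs, where Nanog was highest. Sox2 and Utf1, a chromatin protein gene of pluripotent cells, were the 2 of 7 core and general pluripotency genes called lower in pEpiLCs, both against aEpiLCs and against EpiLCs, where 4.74% and 8.13% of all genes were. Sox2 had a log2 fold change of -2.11 between pEpiLCs and aEpiLCs (SE 0.324, edgeR, adjusted p = 0.00611), and Utf1 of -2.06 (SE 0.424, edgeR, adjusted p = 0.0183). Within pEpiLCs, Sox2 and Nanog were both lowest in replicate 1.

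Tcf7l1, a repressor of Nanog and Esrrb that promotes the exit from naive pluripotency, was the 1 of 8 exit genes called lower in pEpiLCs against either other state, where 8.13% of all genes were called lower against EpiLCs and 4.74% against aEpiLCs. It had 132 to 139 CPM in EpiLCs, 115 to 126 CPM in aEpiLCs, and 34.1, 58.7 and 56.0 CPM in pEpiLCs, a log2 fold change of -1.42 against EpiLCs (SE 0.182, edgeR, adjusted p = 0.00101). Of 8 formative markers, 5 were lower in pEpiLCs than in aEpiLCs (Foxd3, Pou3f1, Sall2, Otx2 and Dnmt3b), where 4.74% of all genes were, with a list median of -1.03, and 3 without pEpiLC replicate 1. Against EpiLCs, 5 were lower (Foxd3, Pou3f1, Dnmt3a, Sall2 and Dnmt3b), where 8.13% of all genes were, and Fgf5 was higher, at the limit on fold change, and without that library 3 were lower. Foxd3, a forkhead repressor, had 0.0477 CPM in pEpiLC replicate 1 and 7.00 and 6.07 CPM in replicates 2 and 3, against means of 37.9 CPM in EpiLCs and 41.8 CPM in aEpiLCs.

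Of 9 genes of the LIF receptor and STAT3 pathway, which maintains Klf4 and Tfcp2l1 in naive cells, Socs3 was the 1 called higher in aEpiLCs than in EpiLCs. Socs3, a feedback inhibitor of the pathway, had 2.55 to 2.66 CPM in EpiLCs and 7.69 to 9.33 CPM in aEpiLCs, a log2 fold change of 1.69 (SE 0.158, edgeR, adjusted p = 1.94e-06). Between pEpiLCs and EpiLCs the receptor subunit gene Il6st was higher, with 15.6 to 16.8 CPM in EpiLCs and 32.4 to 69.8 CPM in pEpiLCs. The kinase gene Pim1 was lower, with 34.9 to 36.5 CPM in EpiLCs and 8.32 to 11.3 CPM in pEpiLCs. Without pEpiLC replicate 1 Socs3 was also called higher in pEpiLCs than in EpiLCs, which made 2 called higher, and Pim1 was called lower than in aEpiLCs. With every library kept, each of these counts is 1 of 9 genes, near the shares of all genes called (7.25% higher in aEpiLCs, 7.71% higher and 8.13% lower in pEpiLCs, each against EpiLCs), and so says nothing particular about the pathway. The list's median log2 fold change lay between 0.12 and 0.29 over the 3 comparisons.

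The agents in the media were read from 8 feedback and target genes of the Activin, WNT and FGF pathways. Between pEpiLCs and aEpiLCs 6 of 8 were higher (Sp5, Lefty2, Axin2, Lefty1, Nkd1 and Smad7), where 2.55% of all genes were, with a list median of 2.51. Axin2, a feedback inhibitor of WNT signalling, had 3.96 to 6.60 CPM in EpiLCs, 10.9 to 12.0 CPM in aEpiLCs and 102 to 176 CPM in pEpiLCs. In aEpiLCs against EpiLCs, Lefty2, Lefty1 and Smad7 were the 3 of 7 called lower, where 5.24% of all genes were, and Axin2 was higher, and in pEpiLCs against EpiLCs Sp5, Axin2 and Nkd1 were the 3 of 8 called higher, where 7.71% of all genes were. Without pEpiLC replicate 1, Lefty2 was called lower in pEpiLCs than in EpiLCs. Dusp6 and Spry4, feedback inhibitors induced by FGF signalling, were called in no comparison, and the log2 fold change of Dusp6 was 0.08 in aEpiLCs (SE 0.109, edgeR, adjusted p = 0.602) and 0.58 in pEpiLCs (SE 0.269, edgeR, adjusted p = 0.115) against EpiLCs. The pEpiLC value rested largely on replicate 1, with 287 CPM of Dusp6 against 139 and 148 CPM in replicates 2 and 3. The EpiLC mean was 130 CPM.

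Of 20 family relatives of the members, other Krüppel-like factors and nuclear receptors among them, 16 were tested between aEpiLCs and EpiLCs. Klf12 and Klf6 were higher in aEpiLCs and Klf17 was lower, 2 and 1 of 16, which is near the shares of all genes called (7.25% higher and 5.24% lower) and says nothing particular about the family. Klf6, a ubiquitous factor of the family, had 42.3 to 46.9 CPM in EpiLCs, 99.4 to 126 CPM in aEpiLCs, and 20.02 to 44.9 CPM in pEpiLCs, the same high state as Klf2. Its log2 fold change was 1.39 between aEpiLCs and EpiLCs (SE 0.0879, edgeR, adjusted p = 6.16e-08) and -1.70 between pEpiLCs and aEpiLCs (SE 0.273, edgeR, adjusted p = 0.00737). Klf6, Klf7 and Klf13 were the 3 of 15 called lower in pEpiLCs than in aEpiLCs, where 4.74% of all genes were, and without pEpiLC replicate 1 the count was 1 (Klf6). Between pEpiLCs and EpiLCs Klf12 was higher, and Klf17 and Klf13 were the 2 of 16 called lower, where 8.13% of all genes were, with 1 (Klf17) without that library. Klf17 had at most 2 counts in each pEpiLC library, so the size of its change is not given.

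Markers of other cells were read beside these values. Of 6 extraembryonic endoderm markers in the table, Gata6 had 46.5 CPM in pEpiLC replicate 1 and 0.0869 and 0.138 CPM in replicates 2 and 3. The list summed to 71.8 CPM in that library, 9.82 and 7.63 CPM in the other pEpiLC libraries, and 12.4 to 16.7 CPM in EpiLCs and aEpiLCs, with Apoa1 and Sox7 at 0 in pEpiLC replicate 1. The 5 definitive endoderm markers summed to 86.1, 45.9 and 37.1 CPM in pEpiLCs and 1.89 to 2.80 CPM in the other states. Most of the pEpiLC sums was Foxa2, with 62.8, 42.6 and 34.0 CPM, and Sox17 was at 0 in pEpiLC replicate 3. In pEpiLC replicates 2 and 3 Sox17 and Cxcr4 did not exceed the highest library of the other states. Cer1 (0.304 and 0.597 CPM) and Hhex (2.17 and 1.79 CPM) did. The 6 trophoblast markers summed to 9.06 CPM in pEpiLC replicate 1 and 1.03 to 5.76 CPM elsewhere. Cdx2 gave 6.96 CPM of the sum in pEpiLC replicate 1, where Elf5, Hand1, Gata3, Ascl2 and Esx1 each had at most 0.953 CPM. The 6 germ cell markers summed to 25.6 to 50.5 CPM, and the 5 feeder fibroblast markers to 13.4 to 24.2 CPM with Col3a1 at 0 in pEpiLC replicate 1. Klf5 and Tbx3 were highest and Nanog was lowest of its state in the library with these high sums, and the part of other cells in those levels was not tested. The 5 neural markers summed to 347 to 395 CPM in aEpiLCs, 121 to 162 CPM in EpiLCs and 154 to 219 CPM in pEpiLCs, where Hes5 and Sox1 were at 0 in replicate 1, and Klf2 was highest in the state with the highest sum, which was not tested either. Most of that sum was Nes, with means of 98.1 CPM in EpiLCs, 311 CPM in aEpiLCs and 183 CPM in pEpiLCs. Of the 4 neural markers tested, Pax6 and Nes were higher in aEpiLCs than in EpiLCs, where 7.25% of all genes were, and Sox1, Pax6 and Sox3 were lower in pEpiLCs than in EpiLCs, where 8.13% of all genes were.

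Genes with the course most like that of Nanog were sought over all libraries. Likeness was measured as the root mean square difference in log2 CPM after centring each gene on its mean over the 9 libraries, among 10729 genes with a mean of at least 5 CPM. The closest were Nrcam (0.417), Ap3b2 (0.462), Nefl (0.468), Ephx2 (0.520) and Ppp4r4 (0.545). Nefl, which encodes a neurofilament subunit, had 35.3 to 45.8 CPM in EpiLCs, 24.5 to 25.4 CPM in aEpiLCs, and 115, 339 and 343 CPM in pEpiLCs, and so shared with Nanog the lower level in pEpiLC replicate 1. Nrcam, a neuronal adhesion molecule gene, had 11.1 to 12.4 CPM in EpiLCs, 25.6, 16.4 and 15.1 CPM in aEpiLCs, and 96.0, 116 and 120 CPM in pEpiLCs. Without pEpiLC replicate 1 the closest were Fst (0.282), Lzts1 (0.361), Ppp4r4, Nrcam and Ap3b2, so 3 of 5 were shared. Fst, which encodes follistatin, an Activin-binding protein, had 13.3 to 14.7 CPM in EpiLCs, 16.5 to 20.6 CPM in aEpiLCs, and 425, 184 and 172 CPM in pEpiLCs, where its highest library was the one with the least Nanog. These values describe likeness over 9 libraries and were not tested.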

How the data were processed

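Bulk RNA-seq of EpiLCs, aEpiLCs and pEpiLCs was analysed, with 3 libraries per state. The authors mapped paired-end reads to GRCm38 with STAR 2.7.9a and deposited the expected counts that RSEM 1.3.1 estimated per gene symbol, without normalization. Read cleaning, gene annotation and strandedness are not given in the sources used here. Expected counts were rounded to whole numbers. For each comparison, the 6 libraries involved were normalised by TMM, filtered with filterByExpr and tested by quasi-likelihood in edgeR 4.0.16 (R 4.3.3), with p-values adjusted over all genes tested. The SE is the absolute log2 fold change over the square root of F. CPM used TMM factors over the 9 libraries. Positions and exon lengths came from GENCODE vM21, in which 22803 symbols (97.2%) matched a single gene. The procedure was tested on simulated data.

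Alternatives used RLE size factors, DESeq2 1.42.0, voom with sample quality weights in limma 3.58.1, edgeR's likelihood ratio test, other filters, all 9 libraries in one fit, a replicate block, and each replicate left out. Leaving out pEpiLC replicate 1 for the gene lists was chosen after seeing the data. The members and the gene lists were chosen with earlier results of these data known. Named list genes were taken from those called, up to 3 per direction and comparison with the largest change. Further genes of a list were named after their values were seen.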

Additional observations from a re-analysis of the deposited data

How the results depend on the processing

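Of 347 log2 fold changes of members under alternatives, 326 kept their direction and whether they met both limits of a call, 8 became weaker, 1 became stronger and 12 reversed, all 12 of changes that were not called. The log2 fold change of Nanog stayed between 3.18 and 3.70 against aEpiLCs and between 3.37 and 3.89 against EpiLCs, with adjusted p (edgeR, DESeq2 or limma) of at most 0.0184, and remained called in each of the 14 alternatives.

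With at least 10 counts in every library, Nr0b1 was not tested, and the members called lower in pEpiLCs fell to 1 against aEpiLCs and 0 against EpiLCs. With the adjusted p alone, 2 members were lower in pEpiLCs than in EpiLCs, and 3 were higher in pEpiLCs than in aEpiLCs, Zfp42 being added to both. The shares of all genes given above include the limit on fold change and do not apply to these counts. The counts therefore say nothing particular about the members. With voom and sample quality weights, 0 members were called higher in aEpiLCs than in EpiLCs, since Klf2 had 0.99 (limma, adjusted p = 0.00587). When each replicate was left out in turn, the members called lower in pEpiLCs than in aEpiLCs ranged from 1 to 2, those called higher in pEpiLCs than in EpiLCs from 1 to 2, and those called higher in aEpiLCs than in EpiLCs from 0 to 1, and those called lower in aEpiLCs than in EpiLCs from 2 to 3, and the genes and libraries are named above with their values. The cause of these shifts was not tested.

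With voom, the sign reversed for Klf5 in pEpiLCs, to -0.17 against aEpiLCs and -0.0466 against EpiLCs, and for Klf4 in aEpiLCs against EpiLCs, to -0.0984, and with the replicate block this Klf4 value was -0.0624. Over the libraries left out in turn, Klf4 ranged from -0.75 to 0.0746 and Klf5 from -0.33 to 0.84 between pEpiLCs and aEpiLCs. Between pEpiLCs and EpiLCs, Klf5 ranged from -0.17 to 1.01 and Tfcp2l1 from -0.23 to 0.0610. Between aEpiLCs and EpiLCs, Nanog ranged from -0.13 to 0.35, Klf4 from -0.44 to 0.32 and Klf5 from -0.0648 to 0.35. The cause was not tested.

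Replicates of the states share numbers, but the deviations of same-numbered libraries correlated at 0.0622 to 0.172 between pEpiLCs and aEpiLCs, 0.0153 to 0.0338 between pEpiLCs and EpiLCs and -0.0601 to 0.0211 between aEpiLCs and EpiLCs, so the numbers were not taken as pairs. Each library correlated best with its own number in 3 of 3, 3 of 3 and 1 of 3 pairs. The replicate block left the counts of members called higher and lower at 2 and 2, 1 and 1, and 1 and 3. Depth limits Tbx3 and Nr5a2, which held 1 to 34 counts per library.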
